A study of Mus musculus with 4 samples.

Results

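The interstitial matrix genes described here are 10 named genes: the fibrillar collagen chains Col1a1, Col3a1 and Col5a2, the collagen VI chains Col6a1 and Col6a2, the proteoglycans Dcn and Lum, the crosslinking enzyme Lox, fibronectin (Fn1) and the procollagen proteinase Bmp1. They were taken by name, and all 10 were present among the 9997 distinct gene symbols of the deposited table. RNA was sequenced from embryoid bodies (floating balls of differentiating stem cells) made from ES-E14TG2a, a line of mouse embryonic stem cells. The 4 libraries comprise 1 of control embryoid bodies and 3 of embryoid bodies that had received ATRA (all-trans retinoic acid, an active derivative of vitamin A), labelled 0, 6 and 10 days. The series followed neuronal differentiation under ATRA, which was added at 5 µM on days 4 and 6 of suspension culture. After 8 days the embryoid bodies were moved to dishes coated with poly-DL-ornithine and mouse laminin. The labels give neither the age of the control nor on which side of this transfer each library lies, so ATRA, culture age and culture format cannot be told apart.

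The interstitial matrix is the loose protein network between cells, unlike the sheet-like basement membrane under epithelia. Fibrillar procollagens are secreted as triple helices with end peptides. Bmp1 removes the carboxy-terminal peptide, the trimmed molecules join into fibrils, and Lox oxidises lysines so that the fibrils become crosslinked. Fibronectin forms a scaffold on cells, Dcn (decorin) and Lum (lumican) coat the fibrils, and collagen VI makes beaded filaments between fibrils and cells. In the embryo these genes are typical of mesenchyme and fibroblasts.

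The coding sequence shows what the 5 collagen genes share. In collagen, glycine, whose codons are GGN, must recur at each step of 3 residues for the triple helix to form. The longest uninterrupted run of such spaced GGN codons was 338 in Col1a1, 344 in Col3a1 and 339 in Col5a2, and 87 in both Col6a1 and Col6a2. In the other 5 members it was at most 3. The repeats are laid out exon by exon: 42 of the 49 fully coding exons of Col1a1, 42 of 49 in Col3a1 and 43 of 52 in Col5a2 consisted of whole repeats of 9 bases, and 21, 24 and 24 of these were 54 bases long. In Col6a1 such whole-repeat exons numbered 17 of 33 and in Col6a2 16 of 25. The first 54-base exon of each is shown, from GENCODE M21 on mm10, with the GGN codons in capitals, to let the shared frame be seen. They are exon 8 of Col1a1 (chr11:94939904-94939957, plus strand), exon 6 of Col3a1 (chr1:45325360-45325413, plus strand), exon 6 of Col5a2 (chr1:45434892-45434945, minus strand), exon 9 of Col6a1 (chr10:76719623-76719676, minus strand) and exon 6 of Col6a2 (chr10:76611948-76612001, minus strand).
Col1a1: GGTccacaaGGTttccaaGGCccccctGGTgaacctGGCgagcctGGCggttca
Col3a1: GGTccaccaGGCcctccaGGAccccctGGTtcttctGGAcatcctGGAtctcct
Col5a2: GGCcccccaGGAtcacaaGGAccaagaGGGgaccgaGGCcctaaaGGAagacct
Col6a1: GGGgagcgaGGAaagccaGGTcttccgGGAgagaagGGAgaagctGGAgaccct
Col6a2: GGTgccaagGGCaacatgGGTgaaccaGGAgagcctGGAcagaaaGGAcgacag
Despite the common frame, no exact 50-base stretch of the Col1a1, Col5a2, Col6a1 or Col6a2 transcript occurred in an annotated transcript of another gene. Near matches and sequence outside annotated transcripts were not covered. Of the Col3a1 stretches 1.67% also occurred in Gm47302, and of the Fn1 stretches 2.42% in Apol7d. The other 4 members shared none.

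Expression is given in FPKM, a fragment count divided by transcript length and by library size, so levels may be set side by side between genes. A difference between libraries is taken between values of log2(FPKM + 1), where low genes appear to change less than they do. Members are named higher or lower once this difference passes 2-fold, and the same was done for the 5885 genes (the tested genes) with 1 FPKM or more somewhere. Judged by what 1 fragment adds to the FPKM of single-transcript genes, the control held about 24500000 fragments and the 0-, 6- and 10-day libraries 26400000, 25200000 and 27300000. Fragments per gene were estimated from this depth and the length of the longest coding transcript. With 1 library per group there is no replicate check, no test and no SD. As a check of the control label alone, Pou5f1, which encodes the stem cell factor Oct4, had 1241 FPKM in the control against 97.4, 150.0 and 141 FPKM in the ATRA libraries. It cannot check which ATRA library is which. In bulk RNA, fewer cells of a type and less RNA per cell cannot be told apart.

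All 10 members had their highest level at 10 days, as did 29.6% of the 5885 genes. The summed level of the 10 was 43.5 FPKM in the control library and 63.4, 106 and 219 at 0, 6 and 10 days. The part of this sum that came from Fn1 was 96.1% in the control and 73.7%, 37.4% and 32.0% in the 3 ATRA libraries. Without Fn1 the sum of the other 9 was 1.70, 16.7, 66.1 and 149 FPKM. Only Fn1 and Bmp1 reached 1 FPKM in the control. At 0 days 5 members did, at 6 days 8 and at 10 days all 10. Of the 10, Col5a2 and Lox passed the 1 FPKM filter only through the 10-day library, and Col3a1, Dcn and Lum only through the 6- and 10-day libraries. Those 5 could pass only by being high there. Col1a1, Col6a1 and Col6a2 passed only through the ATRA libraries, so no weight rests on how many passed. For 8 members, and for 13.3% of the 5885 tested genes, the level never fell from control to 0, 6 and 10 days. The exceptions were Fn1 and Col6a2, both lower at 6 than at 0 days by less than 2-fold.

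**Figure D1:**
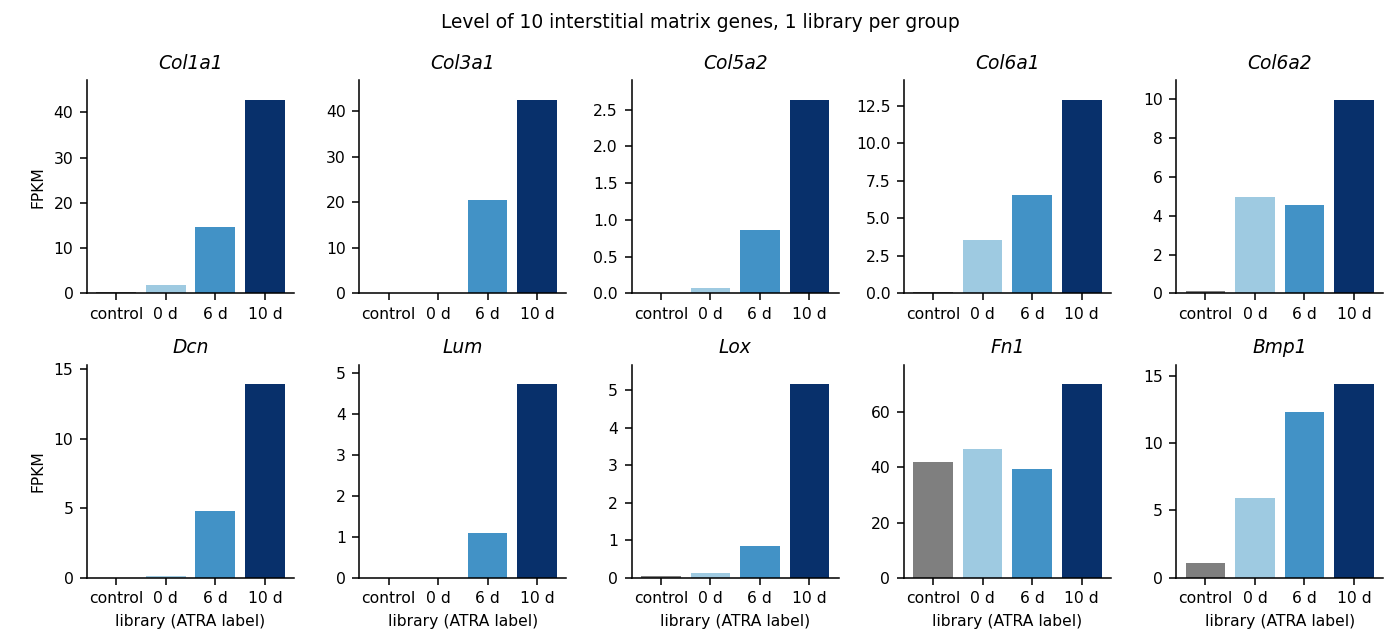
Bars give the FPKM of each of the 10 genes in the 4 libraries, 1 library per group, so there are no error bars; y axes start at 0 and differ between panels. The 10-day bar is the tallest in every panel, and Fn1 alone has a control bar close in height to its 0-day and 6-day bars.

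Between their lowest and highest library, Col3a1 and Col1a1 had the widest ranges of the 10 members, 5.43 and 5.04 on the log2(FPKM + 1) scale, while the third fibrillar chain, Col5a2, had 1.85. Col1a1, which encodes the main chain of type I collagen (mm10 chromosome 11, 94936224 to 94953042, plus strand, 51 exons), stood at 0.328 FPKM in the control library and 1.79, 14.6 and 42.8 at 0, 6 and 10 days. Its level was higher in each successive library, by 1.07, 2.49 and 1.49 on the log2(FPKM + 1) scale. These 3 differences were each past 2-fold, and with 1 added to the FPKM Col1a1 was the only member for which that held. With 0.1 added instead, it also held for Col3a1 (1.07, 6.52 and 1.05) and Dcn (1.17, 4.46 and 1.51), both near 0 in the control. The partner chain of Col1a1, Col1a2, was not analysed here. Col3a1, the single chain of type III collagen (chromosome 1, 45311538 to 45349706, plus strand, 51 exons), went from 0.00631 FPKM in the control and 0.123 at 0 days to 20.4 at 6 days and 42.5 at 10 days. The control value corresponds to 0.860 estimated fragments and the 0-day value to 18.1. Its difference between 6 and 0 days was 4.25. Col5a2, a chain of type V collagen, which starts and thins type I fibrils, was the lowest member at 10 days. It stood at 0.0105, 0.0662, 0.868 and 2.64 FPKM in the control and at 0, 6 and 10 days, of which the control value rests on 1.70 estimated fragments.

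The ratios between the fibrillar chains differed between libraries. Col3a1 was at 0.0689 of the Col1a1 level at 0 days, at 1.40 times that level at 6 days and at 0.993 times at 10 days. The 10-day levels of both lie within counting error of each other (1.20% for Col1a1 and 1.24% for Col3a1). Col1a1 exceeded Col5a2 27.0 times at 0 days, 16.8 times at 6 days and 16.2 times at 10 days. The 0-day value of Col5a2 rests on 11.6 estimated fragments, with a counting error of 29.4%, so the 0-day ratio is uncertain.

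The collagen VI chains were already present in the 0-day library. Col6a1 (chromosome 10, 76708792 to 76726168, minus strand) stood at 0.0788 FPKM in the control library and 3.55, 6.53 and 12.9 at 0, 6 and 10 days. Col6a2 (chromosome 10, 76595762 to 76623630, minus strand) stood at 0.111, 4.97, 4.57 and 9.99 FPKM. At 0 days their levels rest on 384 and 518 estimated fragments, while Col3a1, Col5a2, Dcn, Lum and Lox were each at 0.139 FPKM or less. The 0-day minus control differences were 2.08 and 2.43, above those of 97.1% and 98.0% of all 5885 genes. At 0 days Col6a1 was at 0.715 of the Col6a2 level, and it was at 1.43 times that level at 6 days and 1.29 times at 10 days. The difference between 6 and 0 days was 0.73 for Col6a1 and -0.10 for Col6a2, both short of 2-fold. Col6a3, the long chain that completes the usual collagen VI molecule, was at 0.00927, 0.0268, 0.437 and 0.463 FPKM in the same order of libraries and never reached 1 FPKM. Col6a1 exceeded it 8.51 times in the control and 132, 14.9 and 27.9 times at 0, 6 and 10 days. The control and 0-day ratios divide by Col6a3 levels near 0 and are uncertain.

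The proteoglycans Dcn and Lum, which bind along collagen fibrils, were the only members listed at 0 in a library. Dcn (chromosome 10, 97479609 to 97518143, plus strand) was listed at 0 in the control and stood at 0.125 FPKM at 0 days, 4.83 at 6 days and 13.9 at 10 days. Lum (chromosome 10, 97565128 to 97572703, plus strand) was listed at 0 in both the control and the 0-day library and stood at 1.08 FPKM at 6 days and 4.73 at 10 days. At the depths above, 3 fragments would give Lum 0.050 FPKM in the former and 0.0464 FPKM in the latter; a count of 0 allows levels up to about these. Dcn exceeded Lum 4.46 times at 6 days and 2.95 times at 10 days. Both differences between 10 and 6 days were past 2-fold, 1.36 for Dcn and 1.46 for Lum.

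Lox, lysyl oxidase (chromosome 18, 52516067 to 52529867, minus strand), stood at 0.0454 FPKM in the control library and 0.139, 0.841 and 5.15 at 0, 6 and 10 days. Its 6-day level was 16.3% of its 10-day level, the lowest such share of the 10 members. Its difference between 10 and 6 days was 1.74. Bmp1, the metalloproteinase that trims procollagens (chromosome 14, 70474558 to 70520234, minus strand), lay at the other end. It stood at 1.12 FPKM in the control library and 5.89, 12.3 and 14.4 at 0, 6 and 10 days, and at 6 days it already held 85.7% of its 10-day level. Bmp1 was 5.25-fold above the control at 0 days, while between 6 and 10 days it differed 1.17-fold.

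Fn1 (chromosome 1, 71585520 to 71653200, minus strand, with 17 annotated transcripts) was the most abundant member in all 4 libraries. It stood at 41.8 FPKM in the control library and 46.8, 39.5 and 70.1 at 0, 6 and 10 days, between the 81.2 and 89.6 percentiles of the tested genes. None of its differences reached 2-fold in any of the 6 comparisons. The largest, between 10 and 6 days, was 0.81, a plain ratio of 1.77. The small difference between 6 days and the control, -0.08, turned to 0.08 under upper-quartile scaling and to 0.05 when columns were rescaled without small and ribosomal RNAs. The excess of Fn1 over Col1a1 went from 127 times in the control to 26.2, 2.70 and 1.64 times at 0, 6 and 10 days. The table has 1 value per gene, so the fibronectin splice forms were not separated.

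**Figure D2:**
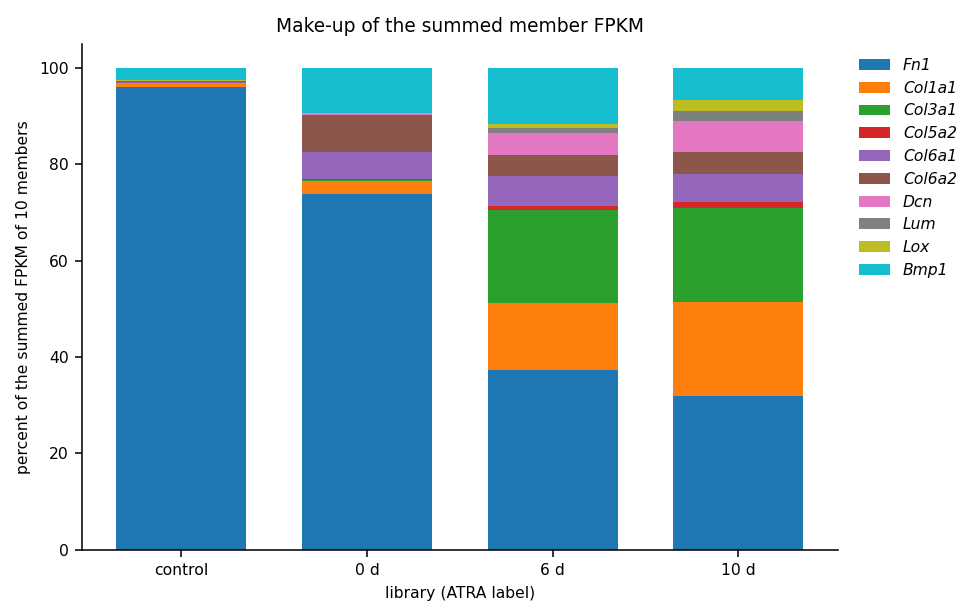
Each bar divides the summed FPKM of the 10 genes in 1 library into the percent from each gene. Fn1 fills 96.1% of the control bar and 32.0% of the 10-day bar, where Col1a1 and Col3a1 take 19.5% and 19.4%.

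The order of levels at 10 days was Fn1 (70.1 FPKM), Col1a1 (42.8), Col3a1 (42.5), Bmp1 (14.4), Dcn (13.9), Col6a1 (12.9), Col6a2 (9.99), Lox (5.15), Lum (4.73) and Col5a2 (2.64). Bmp1 and Dcn, like Col1a1 and Col3a1, differed there by about their counting errors (2.63% and 3.87%), and no replicate spread is known for any pair. At 0 days the order was different, with Bmp1, Col6a2 and Col6a1 after Fn1 and ahead of Col1a1. The share of the 10-day level already present at 0 days was 66.8% for Fn1, 49.7% for Col6a2, 41.0% for Bmp1 and 27.5% for Col6a1. For Col1a1 it was 4.18% and for the other 5 members at most 2.69%.

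**Figure D3:**
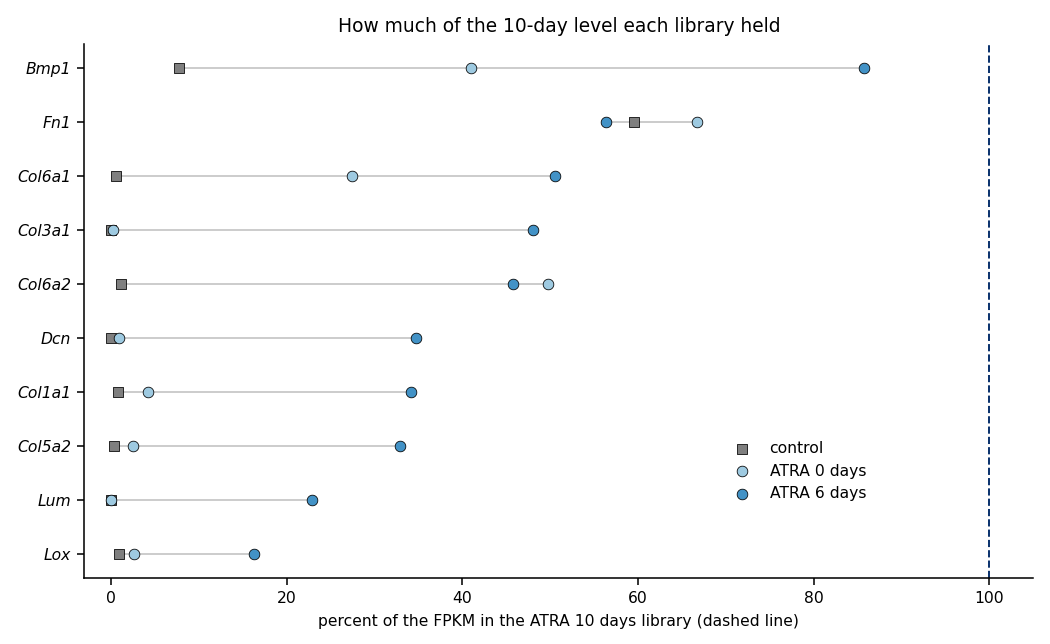
For each gene, points give the FPKM in the control (square) and in the 0-day and 6-day libraries (circles) as a percent of the 10-day FPKM, marked by the dashed line. Bmp1 at 85.7% and Lox at 16.3% are the ends of the 6-day range, and Col6a2 and Fn1 are the genes whose 6-day point lies left of the 0-day point.

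The comparison of 0 days with the control asks what ATRA-treated embryoid bodies held at the start of the labelled series. There 4 of 10 members were higher (Col6a2, Col6a1, Bmp1 and Col1a1) and none lower, while 12.2% of all 5885 genes were higher and 12.8% lower. Col6a2, Col6a1 and Col1a1 were below 1 FPKM in the control, so passing the filter favoured their calls. The members' median difference was 0.16, against -0.04 for all genes. It was pulled down by the members near 0 in both libraries, for which adding 1 to the FPKM leaves almost no difference. Between 6 and 0 days 4 members were higher (Col3a1, Col1a1, Dcn and Lum) and none lower, beside 8.22% and 4.88% of all genes, with medians of 0.88 and 0.01. With a pseudocount of 0.5 or 0.1 the count was 7, as Col5a2, Lox and Bmp1 passed the line. Between 10 and 6 days 5 members were higher (Lox, Col1a1, Lum, Dcn and Col3a1) and none lower, beside 3.7% and 0.85% of all genes, with medians of 1.00 and 0.02. On the log2(FPKM + 1) scale none of these 5 reached 4-fold, though the plain ratio of Lum was 4.37. Another 3 members lay just short of the line, Col6a2 at 0.98, Col5a2 at 0.96 and Col6a1 at 0.89, and all 10 differences were above 0. The call of Col3a1 (1.02) is close to the line too: it was 0.95 under upper-quartile scaling and 0.84 with columns rescaled without small and ribosomal RNAs. Each of the 0-day and 6-day libraries enters 2 of these successive comparisons.

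**Figure D4:**
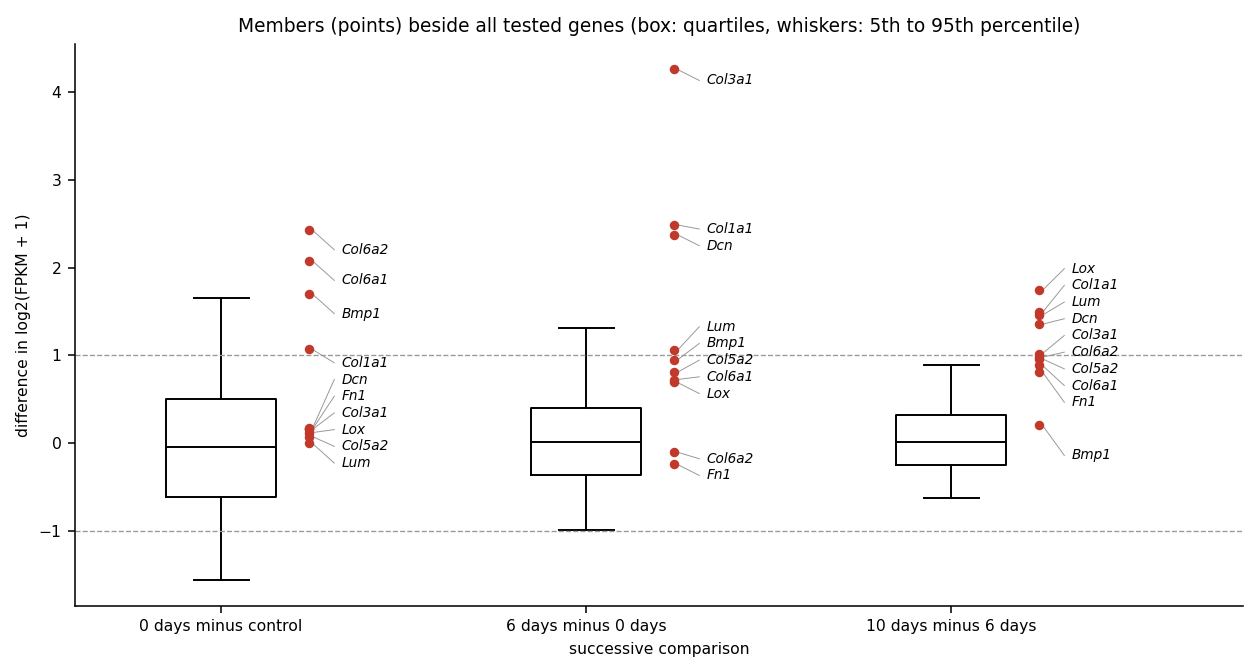
Points are the 10 genes and boxes all 5885 tested genes (line, median; box, quartiles; whiskers, 5th to 95th percentile), as differences in log2(FPKM + 1) between successive libraries; dashed lines mark 2-fold. In the last comparison 5 genes lie above the upper line and Bmp1, at 0.21, is the lowest of the 10.

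Over the longer spans, 8 of 10 members were higher at 10 than at 0 days and none lower, beside 14.4% and 7.6% of all genes, with medians of 2.10 and 0.02. Fn1 (0.57) and Col6a2 (0.88) were the other two. Among the 8, Col3a1, Col5a2, Dcn, Lum and Lox could pass the 1 FPKM filter only by being high at 6 or 10 days. The members were also chosen with earlier results known, so the counts in every comparison are descriptions. Of the 8, 5 reached 4-fold, and Bmp1, at 1.16, was at 0.78 with columns rescaled without small and ribosomal RNAs. Against the control, 7 members were higher at 6 days (15.3% of all genes were higher, 12.5% lower), and 9 at 10 days (19.6% and 17.1%). No member was lower in either. In both, every member called except Bmp1 was below 1 FPKM in the control. These members could pass the filter only through an ATRA library, which favoured their calls. The medians were 2.43 and 3.08, against -0.07 and -0.04 for all genes. Setting the levels listed at 0 to the worth of 3 fragments made the medians 2.39 and 3.08. The 3 comparisons with the control share that library, and those at 10 days share theirs.

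Position on the chromosome joined 6 of the members in pairs. Col3a1 and Col5a2 are adjacent protein-coding genes on chromosome 1, on opposite strands with their ends 24.6 kb apart. Col6a2 and Col6a1 are adjacent on chromosome 10 on the same strand, 85.2 kb apart, and Dcn and Lum follow each other on chromosome 10 at 47.0 kb. The genes next to them were looked at after the members' values were known. Kera and Epyc, small leucine-rich proteoglycan genes that continue the Dcn and Lum row, were listed at 0 in the control and at 0 days. At 10 days they were at 0.0564 and 0.0368 FPKM, far below Dcn and Lum. Wdr75, beyond Col5a2, had 54.8 FPKM in the control against 16.9 FPKM at 10 days, and Pcbp3, beyond Col6a1, at 9.85 and 4.14 FPKM, both lower at 10 days. Gulp1, next to Col3a1, was higher at 10 days, at 2.19 FPKM against 0.155 FPKM in the control. So were Btg1, next to Dcn, at 47.3 against 19.3 FPKM, and Slc40a1 (ferroportin, the iron exporter), near Col5a2, at 11.9 against 0.171 FPKM.

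RefSeq sequences just before the start site were given for Col3a1, Col6a1 and Col6a2 on GRCm38.p6. Stretches of 250 bases are shown for Col3a1 (chr1:45311288-45311537, plus strand) and for the upstream start site of Col6a2 (chr10:76623631-76623880, minus strand), since one was near 0 and the other detected at 0 days. Capitals mark matches, on either strand, to the TATA box (TATAAA), the CCAAT box (CCAAT), the GC box (GGGCGG), the E-box (CANNTG) and the AP-1 motif (TGANTCA).
Col3a1: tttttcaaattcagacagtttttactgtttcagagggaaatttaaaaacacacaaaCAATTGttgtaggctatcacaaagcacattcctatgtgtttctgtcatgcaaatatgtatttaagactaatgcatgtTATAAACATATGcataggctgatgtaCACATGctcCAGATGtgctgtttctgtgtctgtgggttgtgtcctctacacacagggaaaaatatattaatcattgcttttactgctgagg
Col6a2: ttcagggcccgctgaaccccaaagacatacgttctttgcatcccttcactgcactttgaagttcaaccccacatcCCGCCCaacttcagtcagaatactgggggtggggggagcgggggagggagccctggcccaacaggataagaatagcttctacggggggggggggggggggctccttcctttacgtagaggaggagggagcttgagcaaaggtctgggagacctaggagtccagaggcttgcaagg
The Col3a1 stretch had 35.2% G and C and held 4 matches to the E-box and 1 to the TATA box, which lay 117 to 112 bases before the start and next to an E-box match. The Col6a2 stretch had 59.2% G and C and 1 match, to the GC box on the other strand. The window of the downstream Col6a2 start site overlaps an annotated exon and is not printed; it had 64.4% G and C and 3 matches to the GC box, of which 2 overlap. The 250-base windows of all 32851 listed start sites had a median of 52.4% G and C. Of these windows 66.2% held an E-box, 12.4% a TATA box, 32.7% a GC box, 33.8% a CCAAT box and 6.75% an AP-1 motif. The window of Col6a1 held 1 match each to the E-box and the AP-1 motif and overlaps an annotated exon, so it is not printed. A match describes letters only.

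Collagen chains are hydroxylated and folded before export. Of 22 genes of collagen modification and folding 9 were measured and 8 tested. At 10 against 0 days 6 of these 8 were higher and none lower (median 1.87), beside 14.4% and 7.6% of all tested genes. Colgalt2, which adds galactose to collagen, was not tested and stood at 0.354 FPKM at 0 days and 0.0422 FPKM at 10 days. The prolyl 4-hydroxylase subunits P4ha1 and P4ha2, which stabilise the triple helix by hydroxylating proline, were at 24.3, 56.6, 176 and 228 FPKM and at 14.2, 45.3, 129 and 181 FPKM in the control and at 0, 6 and 10 days. P3h4 was at 11.3, 21.3, 43.3 and 99.9 FPKM and P3h2, a prolyl 3-hydroxylase, at 0.255, 0.862, 6.52 and 7.22 FPKM. P3h2 reached 1 FPKM only at 6 and 10 days, so passing the filter favoured its call. The cargo receptor gene Mia3 and the coat gene Sec23a, which act in export of procollagen from the endoplasmic reticulum, were the other two, with differences of -0.09 and -0.05. Unlike Lox, its relative Loxl2 was already at 12.1 FPKM in the control and stood at 35.2, 49.9 and 46.8 FPKM in the ATRA libraries. Adamts14, which trims the amino-terminal end of procollagen, was at 6.41 FPKM in the control and at 1.34, 0.796 and 2.15 FPKM in the ATRA libraries.

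Other collagens had other time courses. Col2a1, the fibrillar collagen of cartilage, was highest at 0 days, at 16.0 FPKM, and stood at 2.19 FPKM in the control, 10.9 at 6 days and 6.00 at 10 days. Of 9 nonfibrillar collagens measured here 5 were tested. At 10 against 0 days their median was 0.02, and Col14a1 was higher (0.112 to 2.44 FPKM, with 4.44 FPKM at 6 days) and Col18a1 lower (62.5 to 30.7 FPKM). Col14a1 reached 1 FPKM only at 6 and 10 days, so passing the filter favoured its call. Of all tested genes 14.4% were higher there and 7.6% lower. Of 10 further small leucine-rich proteoglycans only Ogn and Fmod reached 1 FPKM, at 1.22 and 1.15 FPKM, both at 10 days.

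Of the genes of elastic fibres and fibrillin partners, 5 of 6 tested were higher at 0 days than in the control (median 2.01), and 1 of 6, Mfap4, was higher at 6 than at 0 days (median -0.12). None was lower in either comparison. Of all tested genes 12.2% were higher and 12.8% lower in the first, and 8.22% and 4.88% in the second. Efemp1 was at 0.0648, 6.22, 3.60 and 9.35 FPKM, and Mfap4 at 0.153, 3.86, 14.4 and 8.66 FPKM. Of those called at 0 days, all but Fbln1 (10.7 FPKM) were below 1 FPKM in the control, so passing the filter favoured their calls. Of 7 tested matricellular and large matrix genes 5 were higher and none lower at 10 than at 0 days (median 1.65). Vtn, vitronectin, was at 0.0777 and 59.1 FPKM and Ctgf at 104 and 674 FPKM. Vtn passed the 1 FPKM filter only through the 6- and 10-day libraries, which favoured its call. Of 6 tested matrix proteases and inhibitors 3 were higher and none lower (median 1.07): Timp3, at 4.64 and 38.8 FPKM, Timp2, at 16.1 and 48.9 FPKM, both inhibitors of metalloproteinases, and Mmp14, a membrane-bound collagenase, at 202 and 500 FPKM. Among receptors, Ddr1, a collagen-binding kinase, was higher at 10 days (8.31 to 43.2 FPKM), while Mrc2, which takes up collagen fragments, was lower (31.5 to 4.58 FPKM). Sdc1, a cell-surface proteoglycan, was at 12.0 and 25.8 FPKM, which made 2 of 6 tested receptors higher and 1 lower (median 0.78). The control had 24.7 FPKM of Sdc1 and 373 FPKM of Mmp14. Against it the 10-day differences were 0.06 for Sdc1 and 0.42 for Mmp14, both short of 2-fold. Of 6 tested TGF-beta and BMP signalling genes, Tgfb2 (0.459 to 2.51 FPKM) and Tgfb3 (1.46 to 6.09 FPKM) were higher and none lower (median 0.71). The filter also favoured the call of Tgfb2, which reached 1 FPKM only at 6 and 10 days. Bmp4 was highest in the control, at 51.3 FPKM, and was at 6.26 FPKM at 0 days and 11.2 FPKM at 10 days. All tested genes together had a median of 0.02 at 10 against 0 days, and 14.4% of them were higher and 7.6% lower.

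**Figure D5:**
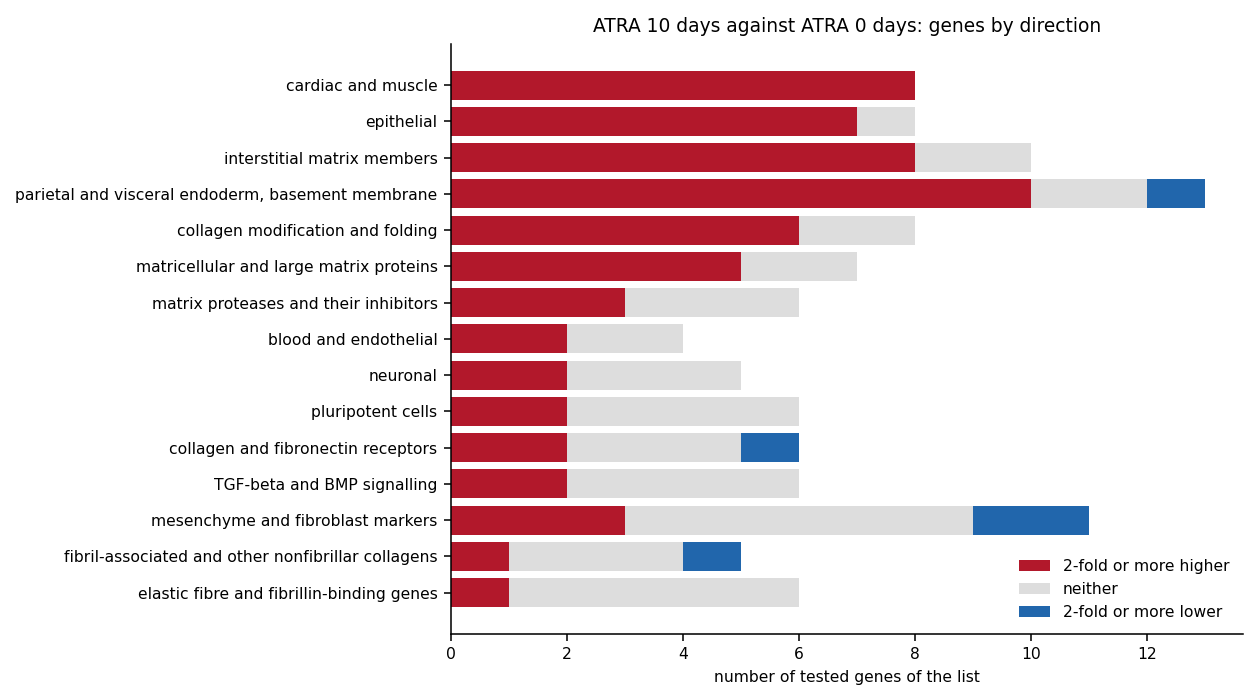
Bars count the tested genes of each list with at least 4 of them that were 2-fold or more higher (red), lower (blue) or neither (grey) at 10 against 0 days. The 10 matrix genes have 8 in red and none in blue, and the mesenchyme markers 3 in red and 2 in blue of 11. Of all tested genes 14.4% were higher and 7.6% lower.

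Markers of the cell types that could carry these transcripts did not all move with them. Mesenchyme and fibroblast markers, 11 of 24 in the table, summed to 4.46 FPKM in the control and to 29.9, 29.8 and 29.6 FPKM at 0, 6 and 10 days. Over the same 3 libraries the 9 members other than Fn1 summed to 16.7, 66.1 and 149 FPKM. At 0 days against the control 6 of these 11 were higher and none lower, beside 12.2% and 12.8% of all tested genes. All 6 were below 1 FPKM in the control, and Meox1 and Foxc1 reached 1 FPKM only at 0 days. Passing the filter thus favoured the calls of all 6. At 10 against 0 days 3 of the 11 were higher and 2 lower, with a median of 0.12. Twist1 (4.70, 12.0 and 12.1 FPKM), Twist2 (0.442, 1.71 and 3.18 FPKM) and Tcf21 (0.566, 2.94 and 3.29 FPKM) were the higher ones. Meox1 (7.85, 0.546 and 0.180 FPKM) and Zeb1 (5.72, 2.36 and 1.35 FPKM) were the lower ones. Twist2 and Tcf21 were listed at 0 in the control. Markers of endoderm and basement membrane, 13 of 19 in the table, summed to 359 FPKM in the control and 566, 3149 and 4506 FPKM in the ATRA libraries. Sparc, which also stands in the matricellular list, gave 1862 FPKM of this sum at 6 days and 2711 FPKM at 10 days. Epithelial markers, 8 of 9, summed to 208, 403, 2421 and 4070 FPKM, and cardiac and muscle markers, 12 of 19, to 57.1, 34.3, 165 and 421 FPKM. Gata4, which stands in both the endoderm and the cardiac list, gave 92.1 FPKM of the cardiac sum at 6 days. Tnnc1 gave 217 FPKM of that sum at 10 days. Neuronal markers, 7 of 14, summed to 9.62, 17.0, 80.2 and 40.4 FPKM, pluripotency markers, 6 of 12, to 2116, 149, 249 and 232 FPKM, and blood and endothelial markers, 5 of 10, to 21.7, 4.35, 5.50 and 12.3 FPKM. Hba-a1 and Hba-x, globin genes, were listed at 0 in the control and at 0 days. Counted at 10 against 0 days, 10 of 13 endoderm, 7 of 8 epithelial, 8 of 8 cardiac, 2 of 5 neuronal, 2 of 6 pluripotency and 2 of 4 blood and endothelial markers were higher among those tested, and 1, Sox7 of the endoderm list, was lower, where 14.4% of all tested genes were higher and 7.6% lower. Of the markers called higher, Hba-a1, Hba-x, Tnnt2 and Myh7 reached 1 FPKM only at 10 days. Twist2, Tcf21, Tnni1 and Hand1 did so only at 6 and 10 days. Passing the filter favoured these calls, so no weight rests on them. The part of any of these cell types in the levels of the matrix genes was not tested.

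Profiles most like those of the members were searched over the 4 libraries among 4241 genes at 5 FPKM or more, by the root-mean-square distance between centred log2(FPKM + 1) values. With 4 points such likeness is a description, and many genes lie close. A member with a small range has near neighbours by construction. The closest to Bmp1 were Igfbp3 (0.03) and Cdc42ep1 (0.07), to Fn1 Auh (0.04) and Itga3 (0.07), and to Col5a2 Tnfaip3 (0.04) and Tnfrsf21 (0.06). Col6a1 had Timp2 (0.08) and Snhg18 (0.12) nearest, and Col6a2 had Aebp1 (0.11) and St3gal1 (0.13). Itih4, which encodes a serum protein made in liver, was nearest to both Lum (0.09) and Lox (0.09), followed by Ptges3l (0.09) and Apoh (0.11). Dcn had Serpina1a (0.10), which encodes an alpha-1-antitrypsin and has close copies that can share its reads, and Nog (0.12), which encodes the BMP antagonist noggin. Col1a1 had Cldn7, a claudin of epithelia, and Fhl2, both at 0.14. Col3a1 had the most distant neighbours, Prl2b1, a placental prolactin (0.22), and Car4, a carbonic anhydrase (0.24).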

How the data were processed

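RNA was sequenced in 4 libraries, 1 per group. The deposited values are FPKM per the file headers, with a column for each library. Per the submitters' processing notes, the authors used Cufflinks, TopHat and Trimmomatic with mm10. Their versions, gene models, strand setting and filters: not given in the sources used here. Of 10201 rows, symbols with more than 1 row (177) were summed; each of the 10 members had 1 row. Positions came from GENCODE M21 on mm10. Depth was estimated from 1396 genes with 1 transcript of 800 nt or more, as the median FPKM times kb between 0.02 and 0.05. Differences used log2(FPKM + 1), a minimum of 1 FPKM in at least 1 library and a 2-fold line, with no test. The 20 gene lists and the members were chosen with earlier results of these data known. Named beside the members were Pou5f1, up to 4 genes of each list with the largest range over the libraries and the 2 nearest profiles. Col6a3, Colgalt2, Mia3, Sec23a, Col18a1, Mmp14, Sdc1, Zeb1, Sox7, Kera, Epyc and the other position neighbours were chosen after their values were seen. So were Foxc1, Tnnt2, Tnni1 and Myh7. Some genes stand in 2 lists. Genes outside the table were not analysed here. Alternatives were pseudocounts of 0.1 and 0.5, filters of 0 and 5 FPKM, 3 other scalings, a 4-fold line and the highest row of a repeated symbol. The calling step was tested on simulated libraries with counting noise alone and the same length for every gene. Changes were planted only in genes at 5 FPKM or more in the library compared against. Members below that level and variation between replicates were not covered. Python 3.11.15, numpy 2.4.6, pandas 2.3.3 and matplotlib 3.10.9 were used.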

Additional observations from a re-analysis of the deposited data

How the results depend on the processing

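Of 108 counts of members recomputed under an alternative, 103 stayed within 1.5 times the reported count. The number of members higher at 6 against 0 days was 7 with a pseudocount of 0.1 and 7 with 0.5, instead of 4. With a 4-fold line the number higher was 2 at 0 days against the control, 0 at 10 against 6 days and 5 at 10 against 0 days. No member was called lower in any comparison under any of these settings. Of 360 single differences recomputed, 19 crossed the 2-fold line and no called one changed sign; 16 of the 19 came with the smaller pseudocounts. Rescaling without small and ribosomal RNAs moved the median of all genes by 0.33 at 0 days against the control and by -0.38 at 10 against 0 days. The share of higher genes among all called ones then went from 48.9% to 72.1% and from 65.5% to 34.2%. It went from 62.8% to 46.1% at 6 against 0 days and from 81.3% to 59.9% at 10 against 6 days. No library could be left out, since each group has 1. No paired analysis was possible because each group has 1 library and the labels give no replicate numbers.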
